A study of Mus musculus with 12 samples.

Results

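The EGF-family genes examined here are the ligand genes Ereg, Areg, Hbegf, Nrg1, Tgfa and Btc and the receptor gene Egfr. For each gene the probe set annotated to that symbol alone was used, and none of these genes had more than 1. Of the 7 genes, 6 had such a probe set among 19938 genes on the array. No probe set was matched to Areg, which is therefore not analysed here. The genes were chosen by the measured S/S difference of Ereg, which stands out in S/S cells, so the S/S differences of all members are given as a description, without a test. The L/L comparison was not used for that choice and is tested.

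The samples were mouse embryonic fibroblasts, which are primary cells explanted from embryos. They were grown in DMEM with 10% FBS to passage 4 and then kept in 0.1% FBS for 72 h, which stops proliferation, before total RNA was measured on Affymetrix Mouse Gene 1.0 ST arrays. There were 4 groups of 3 arrays: Rb1 S/S cells, the Rb1 +/+ cells matched to them (together the S set), Rb1 L/L cells, and the Rb1 +/+ cells matched to those (the L set). All groups shared the same serum deprivation. Rb1 encodes the retinoblastoma protein, which restrains E2F transcription factors. The labels do not give the sequence change of either allele, the mouse strain, the age of the embryos, or whether replicates came from separate embryos, so p-values measure only the spread between these samples, which may be technical.

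Ligands of the EGF family are made as membrane-anchored precursors and are released by metalloproteases of the ADAM family. Epiregulin, amphiregulin, HB-EGF, TGF-alpha and betacellulin bind the EGF receptor, and neuregulin 1 binds ERBB3 and ERBB4. The activated receptors signal through RAS and the ERK kinases, which in fibroblasts promote cell cycle entry and migration. ERK activity in turn induces transcripts of several of the ligands and of inhibitors that limit the pathway.

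S-set wild-type array 1 was unlike the remaining 11 arrays: the SD of its deviations from its group mean over all genes was 0.325, against 0.0933 to 0.193 in the others. The X-linked RNA Xist was 5.06 in L-set wild-type array 1 and 5.41 in L/L array 1, and at least 10.4 in the other 10 arrays, so that each group of the L set held 1 male array. Rb1 RNA lay between 8.34 and 9.72 in the 12 arrays, and since the alleles are not described it does not check the labels. All 11 fibroblast markers had group means above 6.26, the 95th percentile of 1027 olfactory receptor genes, which fibroblasts do not express. Of the members, 5 had a mean above that level and Btc, at 6.10, did not. Ereg was the lowest of the 5, at 6.71. Levels are log2 RMA values (background-corrected, normalized, summarised over probes). Differences between groups are taken within a probe set across arrays. Between genes, levels serve only as a rough guide to expression, as with the olfactory receptor genes.

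Ereg encodes epiregulin, a low-affinity ligand of the EGF receptor and ERBB4. Its level was 6.09, 6.51 and 6.55 in the 3 wild-type arrays of the S set and 7.21, 7.19 and 6.95 in the 3 S/S arrays. The S/S arrays were higher than all of their wild-type arrays, and the lowest of them, 6.95, was also above the highest of the other 9 arrays, 6.87. The means were 6.38 ± 0.26 (SD, n = 3) in wild type and 7.12 ± 0.14 (SD, n = 3) in S/S, a log2 difference of 0.73 (SE 0.15), or 1.66-fold. A larger rise was measured for 128 of 19938 genes. The wild-type mean was close to 6.26, the 95th percentile of the olfactory receptor genes, and 1 wild-type array was below it. The wild-type array that stood apart gave the lowest Ereg value, and without it the difference was 0.58. Without the number-1 arrays of both groups it was 0.54.

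In the L set Ereg was 6.87, 6.56 and 6.42 in the wild-type arrays and 6.74, 6.64 and 6.77 in the L/L arrays. These groups overlapped, and the lowest and the highest of the 6 values were both wild type. The means were 6.62 ± 0.23 (SD, n = 3) and 6.72 ± 0.07 (SD, n = 3). The difference of 0.10 (SE 0.15, 95% interval -0.21 to 0.42) did not pass (limma, adjusted p = 1), and it was 0.23 without L-set wild-type array 1 and 0.0033 without array 3 of that group. Ordered by group mean, S/S came first, followed by L/L, the L-set wild type and the S-set wild type. Only the step from S/S to L/L separated neighbouring groups without overlap. The effects in the S set and the L set, 0.73 and 0.10, stand side by side, and their difference was not tested because Ereg was picked for one of them.

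**Figure D1:**
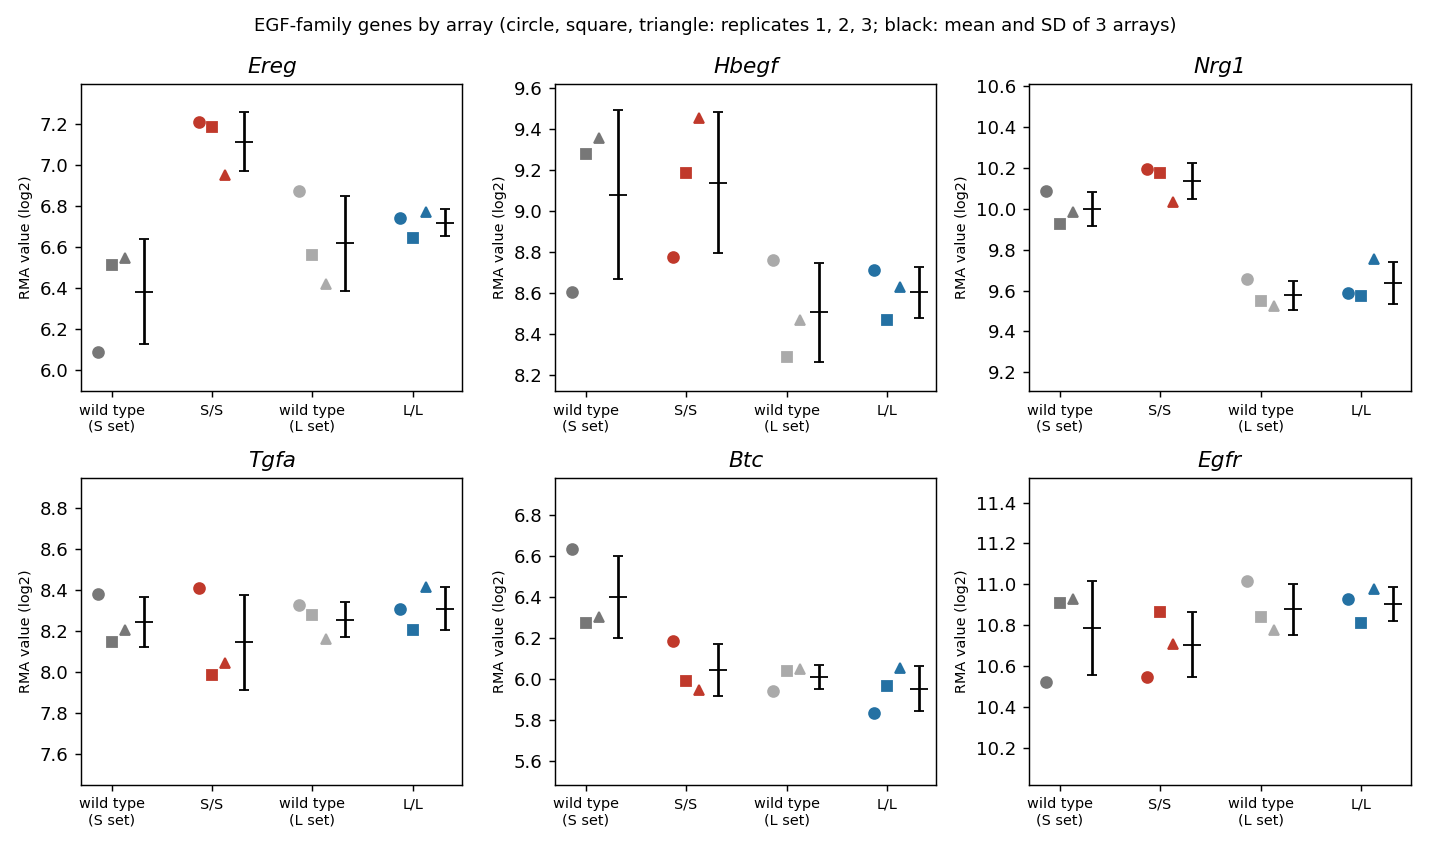
Log2 RMA value of the 6 measured EGF-family genes in each array, by group, with the group mean and SD (n = 3) in black. Every panel spans the same range of the axis. Ereg in S/S lies above all other arrays, Nrg1 separates the S set from the L set, and Btc is highest in the S-set wild type.

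Btc encodes betacellulin, a ligand of the EGF receptor and ERBB4. It had the other S/S difference whose groups did not overlap, and it was in the opposite direction. Btc was 6.63, 6.27 and 6.30 in the wild-type arrays of the S set and 6.19, 5.99 and 5.95 in the S/S arrays. Every S/S array was below every wild-type array, and the highest value again came from the wild-type array that stood apart. The S/S difference was -0.36 (SE 0.12), from 6.40 ± 0.20 (SD, n = 3) to 6.04 ± 0.13 (SD, n = 3), and without that array it was -0.24. Btc was 5.94, 6.04 and 6.05 in the L-set wild type and 5.83, 5.97 and 6.05 in L/L. The S/S mean thus lay close to both groups of the L set, and the S-set wild type was above them. The L/L difference of -0.06 (SE 0.12, 95% interval -0.31 to 0.20) did not pass (limma, adjusted p = 1). The mean of Btc was above that of 93.3% of olfactory receptor genes but below their 95th percentile, 6.26. Over the 12 arrays its mean was thus within the upper range of genes without expression, although all 3 S-set wild-type arrays were above 6.26.

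Ereg, Areg and Btc lie next to one another on the same chromosome, with the ligand gene Epgn on the other side of Ereg. Epgn, which encodes epigen, was at 5.58 in the S-set wild type and 5.48 in S/S, a difference of -0.11 (SE 0.18, limma, adjusted p = 0.826). Parm1, the gene beyond Btc, differed by 0.26 (limma, adjusted p = 0.532) and Mthfd2l, beyond Epgn, by 0.18 (limma, adjusted p = 0.622). The chemokine genes Cxcl1 and Cxcl15, further on the Epgn side, were at -0.40 (limma, adjusted p = 0.498) and -0.94 (limma, adjusted p = 0.25). The neighbours of Ereg thus had differences of both signs, and none of those tested passed.

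RefSeq start-site sequences (GRCm38.p6) were matched for 4 of the 7 members, Areg, Btc, Egfr and Tgfa. Both genes on the far side of Ereg from Epgn are shown, 250 bases upstream of the start site, 5′ to 3′ on the gene's strand. They are Areg at chr5:91139349-91139598 (plus strand) and Btc at chr5:91402995-91403244 (minus strand). Capitals mark a cAMP response element, the site bound by CREB.
Areg: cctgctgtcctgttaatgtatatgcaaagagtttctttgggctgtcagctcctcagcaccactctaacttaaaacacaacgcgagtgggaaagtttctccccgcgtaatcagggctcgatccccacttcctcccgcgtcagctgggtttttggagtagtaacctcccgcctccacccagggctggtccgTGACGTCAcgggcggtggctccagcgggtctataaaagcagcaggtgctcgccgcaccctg
Btc: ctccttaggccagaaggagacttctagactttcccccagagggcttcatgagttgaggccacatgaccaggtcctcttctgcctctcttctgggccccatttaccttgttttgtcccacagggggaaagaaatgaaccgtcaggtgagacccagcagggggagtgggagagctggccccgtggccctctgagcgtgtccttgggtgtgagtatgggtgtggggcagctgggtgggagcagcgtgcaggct

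Over the full 300 bases, which include 50 after the start site, 4 motifs were searched on both strands. The cAMP response element TGACGTCA, a palindrome, starts at position -61 of Areg and is present in 1.79% of 32851 RefSeq start-site windows. The E2F-like motif TTTNNCGC is present in 5.17%, the CHR element TTTGAA in 17.89% and the AP-1 motif TGANTCA in 7.81%. None of the 4 motifs is in the windows of Btc, Egfr and Tgfa, and Areg holds the cAMP response element alone. A match is a string of letters and not a measured binding site.

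Nrg1 encodes neuregulin 1, the ligand of ERBB3 and ERBB4. It was 10.09, 9.92 and 9.98 in the S-set wild type and 10.20, 10.18 and 10.03 in S/S. It was lower in the L set, at 9.65, 9.55 and 9.53 in wild type, against 9.59, 9.57 and 9.76 in L/L. Every array of the S set was above every array of the L set, a separation that 6.75% of all genes showed in this direction and 4.81% in the other. Within each set the mutant and wild-type arrays overlapped. The S/S difference was 0.14 (SE 0.10). The L/L difference of 0.06 (SE 0.10, 95% interval -0.15 to 0.28) did not pass (limma, adjusted p = 1). The L-set wild type was 0.42 below that of the S set, so the sets differed more than either mutant differed from its wild type. Embryos, culture and array handling cannot be told apart between the sets.

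Hbegf encodes HB-EGF, a heparin-binding ligand of the EGF receptor and ERBB4. It was 8.60, 9.28 and 9.35 in the S-set wild type and 8.77, 9.19 and 9.45 in S/S, a difference of 0.06 (SE 0.21). Arrays numbered 1 were the lowest of both groups. In the L set it was 8.76, 8.29 and 8.46 in wild type, against 8.71, 8.47 and 8.63 in L/L. Arrays numbered 1, the male ones, were here the highest of both groups. The L/L difference was 0.10 (SE 0.21, 95% interval -0.35 to 0.55) and did not pass (limma, adjusted p = 1). Hbegf had the widest spread of the members, 1.17 between its lowest and highest array, and its spread within groups was larger than either mutant difference. The L-set wild type was 0.57 below that of the S set, and the 2 sets overlapped through the arrays numbered 1.

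Tgfa encodes TGF-alpha, a ligand of the EGF receptor. It was 8.38, 8.15 and 8.21 in the S-set wild type, 8.41, 7.98 and 8.04 in S/S, 8.33, 8.28 and 8.16 in the L-set wild type, and 8.31, 8.21 and 8.42 in L/L. All 4 groups overlapped in a range of 0.43, the narrowest of the members. The S/S difference was -0.10 (SE 0.12), and it ran from -0.23 to -0.02 when S/S array 1 or 2 was left out. The L/L difference of 0.05 (SE 0.12, 95% interval -0.22 to 0.32) did not pass (limma, adjusted p = 1).

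Egfr encodes the EGF receptor itself. It was 10.53, 10.91 and 10.93 in the S-set wild type and 10.55, 10.86 and 10.71 in S/S, a difference of -0.08 (SE 0.13), which was -0.21 without S-set wild-type array 1 and -0.0028 without S/S array 1. Arrays numbered 1 had the lowest values of both groups. In the L set Egfr was 11.02, 10.84 and 10.78 in wild type, against 10.93, 10.81 and 10.98 in L/L. The groups of each set overlapped, and the L/L difference of 0.03 (SE 0.13, 95% interval -0.25 to 0.31) did not pass (limma, adjusted p = 1).

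Counted over the 6 measured members, 1 was higher and 1 was lower in S/S without overlap of the groups, where 5.49% of all genes were higher and 6.29% lower (11.8% either way). The median S/S difference of the members was -0.01, beside -0.04 over all genes. In L/L the groups overlapped for all 6 members, where 9.71% of genes were higher and 5.1% lower without overlap (14.8% either way), and 0 of 6 passed, as against 8 genes or 0.0401% of all (limma). At an unadjusted p under 0.05 there were also 0 members in L/L, against 3.27% of genes. The L/L differences of the members ran from -0.06 to 0.10, with a median of 0.06 beside 0.02 over all genes.

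**Figure D2:**
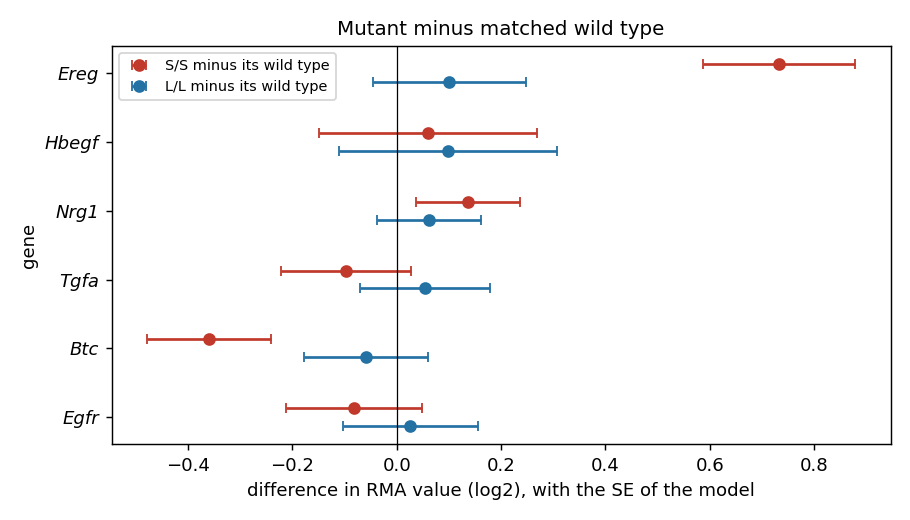
Difference between mutant and matched wild type (log2 RMA) with the SE of the linear model over 12 arrays, for S/S (red) and L/L (blue). Ereg in S/S lies at 0.73 and Btc in S/S at -0.36, and the L/L differences of all 6 genes lie between -0.06 and 0.10.

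The other genes of the pathway were described by 8 lists with 85 genes, of which 79 were measured. None of the 79 passed in S/S, where 24 genes or 0.12% of all did, or in L/L (limma, adjusted over all genes), and 18 in S/S and 2 in L/L had an unadjusted p under 0.05, as did 10.1% and 3.27% of all genes. The effect in S/S minus that in L/L passed for 0 of the 79, against 0.015% of all genes, and 8 had an unadjusted p under 0.05, against 6.5% of all genes (limma). The median difference of the 79 was 0.13 in S/S, beside -0.04 over all genes, and 0.00 in L/L, beside 0.02. In S/S 57 were positive and 22 negative, and in L/L 38 were positive and 41 negative. Without S-set wild-type array 3 1 gene, Dusp4, passed in S/S. With array weights, which give less weight to arrays that stand apart, Rhbdf2, Dusp4, Fosl1 and Ptgs2 passed in S/S, all higher, and Fosl1 passed in L/L.

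Of the 5 other ligand genes none passed in either mutant. Egf, the founding ligand, was at -0.16 in S/S (limma, adjusted p = 0.77) and -0.07 in L/L. Nrg2 and Nrg3, which encode further neuregulins, were at -0.13 and -0.10 in S/S and at -0.12 and 0.14 in L/L. The list had a median of -0.11 in S/S and 0.00 in L/L. Egf was 7.38, 6.36 and 6.58 in the S-set wild type and 6.52, 6.60 and 6.72 in S/S. The highest wild-type value thus came from S-set wild-type array 1, which stood apart. The same held for Nrg2 (7.60, 7.17 and 7.01), Nrg3 (5.66, 5.09 and 5.32) and Epgn (6.01, 5.33 and 5.41). The negative S/S differences of these genes therefore lean on that array. Over 12 arrays the means of Nrg3 and Epgn, 5.24 and 5.49, were below 6.26, the 95th percentile of the olfactory receptor genes.

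The 3 other receptor genes did not pass in either mutant. Erbb3, which encodes a kinase-impaired receptor of neuregulins, was 6.85, 6.86 and 6.79 in the S-set wild type and 6.58, 6.66 and 6.71 in S/S. In the L set it was 6.62, 6.75 and 6.69 in wild type, against 6.85, 6.84 and 6.85 in L/L. The groups of Erbb3 did not overlap in either set, and the S/S and L/L differences, -0.18 (SE 0.09, limma, adjusted p = 0.507) and 0.16 (SE 0.09, limma, adjusted p = 1), had opposite signs. Erbb2, the receptor without a ligand of its own, was at -0.06 in S/S and 0.14 in L/L, and Erbb4 was at -0.12 and 0.10. Tested directly, the effect in S/S minus that in L/L did not pass for any of the 3, with Erbb3 at -0.34 (limma, adjusted p = 0.714). The means of Erbb3 and Erbb4 over 12 arrays, 6.75 and 6.40, were not far above 6.26, the 95th percentile of the olfactory receptor genes.

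Among 11 genes of ligand shedding the median was 0.08 in S/S and -0.06 in L/L, and none passed. Rhbdf2 encodes iRhom2, which brings the protease ADAM17 to the cell surface. It was at 0.34 in S/S (SE 0.12, limma, adjusted p = 0.377) and 0.00 in L/L. The metalloprotease gene Adam12 was at -0.36 in S/S (limma, adjusted p = 0.418), with all S/S arrays below wild type, and -0.10 in L/L. Adam17, the main protease that releases these ligands, was at 0.05 in S/S and -0.13 in L/L, and Adam19 was at 0.24 and -0.09. The highest S/S difference of the list, 0.85, was that of Adam8, a metalloprotease of leukocytes, named here after its values were seen. Adam8 did not pass either, and its highest level of all arrays, 9.55, was in L-set wild-type array 3, the array with the highest macrophage markers.

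Of 17 adaptor and ERK cascade genes 12 were measured, with a median of 0.13 in S/S and -0.07 in L/L, and none passed. Sos1, a RAS activator, was at 0.32 in S/S (SE 0.12, limma, adjusted p = 0.405) and at -0.24 in L/L (SE 0.12, limma, adjusted p = 1). The kinase gene Braf was at 0.39 in S/S (limma, adjusted p = 0.408), with all S/S arrays above wild type, and -0.10 in L/L. The docking protein gene Gab2 was at 0.12 in S/S and -0.13 in L/L. The 9 receptor inhibitors and ligases were all positive in S/S (median 0.06), and 7 were negative in L/L with a median of -0.03. Among them the ubiquitin ligase gene Cbl was at 0.23 in S/S (limma, adjusted p = 0.464) and -0.03 in L/L, Socs4 was at 0.29 and -0.16, and Lrig2 was at 0.18 and -0.24. For all 9 genes of this list the lowest S-set wild-type value came from array 1, which stood apart. Without that array the means of Errfi1, Lrig1, Cblb and Socs5 were not higher in S/S. The shared S/S sign of the list therefore leans on that array.

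All 11 ERK feedback inhibitors were positive in S/S (median 0.24), and 0 passed while 5 had an unadjusted p under 0.05 (limma), as 10.1% of all genes did. Dusp4 encodes a nuclear phosphatase that dephosphorylates ERK. It was 7.78, 8.14 and 8.68 in the S-set wild type and 8.94, 9.29 and 9.12 in S/S. The S/S arrays were all above the wild-type arrays, and the difference was 0.92 (SE 0.19, 1.89-fold, limma, adjusted p = 0.0998). Spry4, a RAS-ERK inhibitor, was 9.11, 9.28 and 9.18 in wild type, against 9.63, 9.56 and 9.53 in S/S, again without overlap, a difference of 0.39 (SE 0.09, limma, adjusted p = 0.176). In L/L the list had a median of -0.01 with 4 of 11 positive. Dusp4 was at 0.22 in L/L, Spry4 at -0.05 and Spred2, a further RAS-ERK inhibitor, at 0.18 (all limma, adjusted p = 1). Without S-set wild-type array 1 the S/S median of the list was 0.15, with 10 of 11 positive and 2 at an unadjusted p under 0.05.

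Among 16 ERK-induced transcripts 11 were positive in S/S (median 0.16), and 15 were positive in L/L (median 0.07), and none passed. The transcription factor gene Myc was 10.01, 10.23 and 10.42 in the S-set wild type and 10.63, 10.51 and 10.69 in S/S, a difference of 0.39 (SE 0.12, limma, adjusted p = 0.303). Fosl1, which encodes the AP-1 subunit FRA-1, was 8.31, 8.26 and 8.15 in the L-set wild type and 8.69, 8.44 and 8.83 in L/L. The L/L arrays of Fosl1 were all above wild type, and the difference was 0.41 (SE 0.13, limma, adjusted p = 0.783). In S/S Fosl1 was at 0.30 (limma, adjusted p = 0.465). Fos, another AP-1 subunit gene, was at 0.25 in L/L (SE 0.10, limma, adjusted p = 1), without overlap of the groups, and 0.15 in S/S.

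Of 13 genes of prostaglandin signalling and mRNA decay, which are known inputs to Ereg and Areg, 12 were measured and none passed. Their median was 0.15 in S/S and 0.02 in L/L. Ptgs2 encodes the inducible cyclooxygenase that makes prostaglandin precursors. It was 10.07, 10.31 and 10.60 in the S-set wild type and 11.08, 11.10 and 10.94 in S/S. The S/S arrays lay above wild type without overlap, and the difference was 0.71 (SE 0.18, 1.64-fold, limma, adjusted p = 0.193). In the L set Ptgs2 was 10.25, 9.71 and 9.67 in wild type, against 10.22, 9.76 and 9.86 in L/L, a difference of 0.07 (SE 0.18). The prostaglandin receptor gene Ptger3 was at -0.33 in S/S (limma, adjusted p = 0.39) and -0.08 in L/L, from levels of 6.29 and 6.17 near that of the olfactory receptor genes. Ptger4 was at 0.20 in S/S and 0.19 in L/L, and the CREB gene Creb1 was at 0.15 and -0.10.

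**Figure D3:**
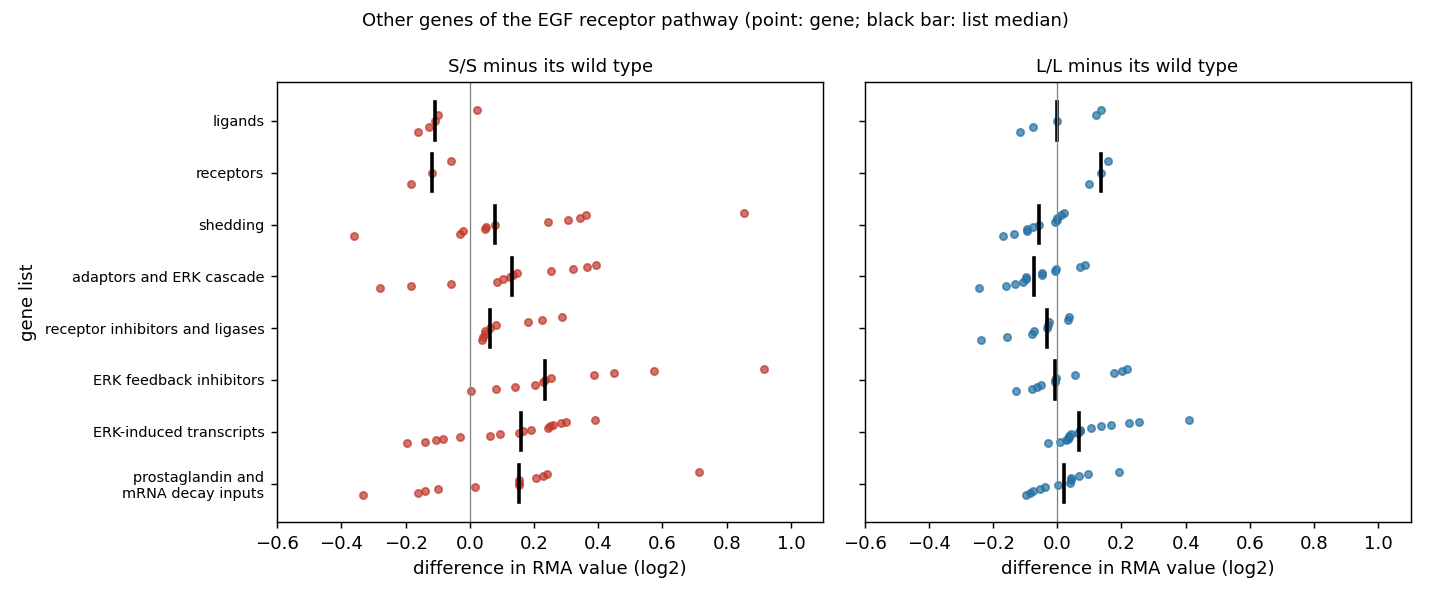
Difference between mutant and matched wild type (log2 RMA) for the 79 measured pathway genes, 1 point per gene by list, with the list median as a black bar, for S/S (left) and L/L (right). All 11 ERK feedback inhibitors lie above 0 in S/S, with Dusp4 at 0.92, and none of the 79 genes passed in either mutant.

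The genes whose level followed Ereg most closely over 12 arrays, among 14749 other genes with a mean of at least 6, were Ptar1, Sorbs2, Rb1, Ptprz1 and Dgkh. Their Pearson correlations with Ereg were 0.96, 0.95, 0.94, 0.93 and 0.92. Their Spearman coefficients ran from 0.82 for Ptprz1 to 0.92 for Sorbs2. Ptar1 encodes a prenyltransferase-related protein, Sorbs2 an adaptor of the actin cytoskeleton, Ptprz1 a receptor phosphatase and Dgkh a diacylglycerol kinase. In S/S the 5 genes were higher by 0.46, 0.69, 0.87, 1.00 and 0.45. As Ereg was highest in S/S, a choice by correlation with it favours genes that are higher there, so these rises are no separate result. Within groups, as deviations from the group means, the correlation with Ereg was between 0.79 for Dgkh and 0.96 for Sorbs2. All 12 points of these correlations share the array and its normalization, and the arrays that stood apart enter them.

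The genes most like Nrg1 were Mrtfb, which encodes a coactivator of serum response factor (Pearson 0.99), and the caspase gene Casp8 (0.96). Those most like Hbegf were Mfge8, which encodes a secreted protein that bridges cells (0.95), and the elongation factor gene Supt5 (0.95). Mfge8 was at 11.90 and 11.96 in the S-set wild type and S/S. In the L-set wild type and L/L it was at 11.45 and 11.56. It thus shared the offset of Hbegf between the sets, which its choice by correlation favours. Those most like Tgfa were Foxn1 (0.93) and Prn (0.92), both with group means between 6.24 and 6.39, near the level of olfactory receptor genes. Those most like Egfr were Ccdc125 (0.93) and the Wnt receptor gene Fzd1 (0.91).

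Macrophage markers differed in S/S alongside Ereg. Of 15 macrophage markers 15 were positive in S/S, with a median of 0.74. In 14 of them S/S was above wild type without overlap, as in 5.49% of all genes. However, 0 passed, and 1 had an unadjusted p under 0.05, as did 10.1% of all genes (limma). The mean level of the 15 markers lay between 7.99 and 8.25 in the S-set wild type and between 8.81 and 8.91 in S/S. Their log2 summed level was 12.73 to 12.90 in wild type and 13.50 to 13.69 in S/S. Cd68, a lysosomal protein of macrophages, was 9.46, 9.15 and 9.33 in the S-set wild type and 10.63, 10.22 and 10.75 in S/S. The SD of Cd68 was 0.16 and 0.28 in these groups, but 1.31 and 1.27 in the L-set wild type and L/L. The model shares its estimate of the spread over all groups, so the spread of the L set entered the S/S test of Cd68. Ptprc, the pan-leukocyte antigen, and Mrc1 were not above 6.26 in that wild type, and all 15 markers were above it in S/S. In bulk RNA more cells of a type and more RNA per cell cannot be told apart.

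In the L set the macrophage markers and Ereg did not go together. L-set wild-type array 3 had the highest macrophage level of all arrays, 9.65, and the lowest Ereg of its set, 6.42. The male arrays of that set had the lowest macrophage levels, 7.50 in wild type and 7.17 in L/L, with Ereg at 6.87 and 6.74. Over the 12 arrays the Pearson correlation of Ereg with the macrophage level was 0.13, and over the 6 arrays of the L set it was -0.78. The log2 summed macrophage level was 11.91 to 14.37 in the L-set wild type and 11.49 to 13.50 in L/L, where Itgam and Mrc1 were not above 6.26. Whether macrophages had a part in the S/S difference of Ereg was not tested.

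**Figure D4:**
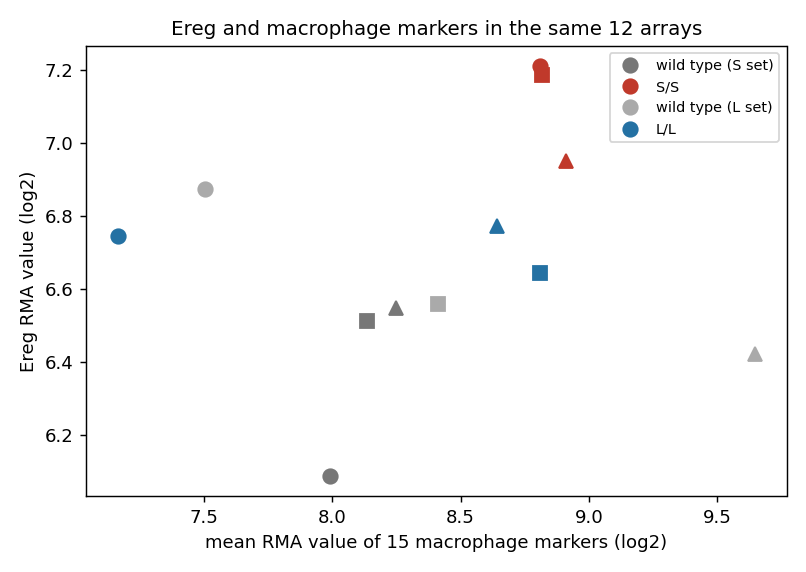
Ereg (log2 RMA, vertical) against the mean level of 15 macrophage markers (log2 RMA, horizontal) in each of the 12 arrays. The S/S arrays combine macrophage levels of 8.81 to 8.91 with the highest Ereg, and the array with the highest macrophage level, 9.65, has Ereg at 6.42.

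Of the 10 endothelial markers 3 were positive and 7 negative in S/S, with a median of -0.07. The largest differences of that list, which were looked up after its values were seen, were those of Emcn, a sialomucin of endothelial cells, and Flt1, a VEGF receptor. Emcn was 6.70, 6.64 and 7.01 in S-set wild type and 8.50, 8.21 and 8.48 in S/S, a difference of 1.62 (3.07-fold, limma, adjusted p = 0.197). Its SD was 0.20 and 0.16 in these groups, but 1.05 and 0.63 in the L-set wild type and L/L, which share the model's spread. Flt1 was 8.71, 8.88 and 8.96 in S-set wild type and 9.60, 9.57 and 9.54 in S/S, a difference of 0.72 (1.64-fold, limma, adjusted p = 0.0603). Both lay above wild type in S/S without overlap, as did 5.49% of all genes. The mean level of the 10 markers had a Pearson correlation with Ereg of 0.45 and a Spearman coefficient of 0.64 over 12 arrays. Over the 6 arrays of the L set the Pearson correlation was 0.94. From array 1 to array 3 of the L-set wild type Emcn fell from 9.06 to 6.98, and the list mean fell from 7.01 to 6.75. No other marker of the list had an SD above 0.28 within either L-set group. The male arrays had the highest list means of that set, 7.01 and 6.99. Emcn thus weighed heavily in the list mean, and the correlation without Emcn was not computed. For the fibroblast and epithelial markers the Pearson values in the L set were -0.82 and 0.76. The log2 summed level of the endothelial markers was 10.32 to 10.39 in the S-set wild type, 10.75 to 10.82 in S/S, 10.40 to 10.80 in the L-set wild type and 10.57 to 10.92 in L/L, and Pecam1 and Esam were not above 6.26 in any group. Of the 11 epithelial markers, which mark cells that make Areg, Ereg and Tgfa, 10 were negative in S/S, with a median of -0.17. Their log2 summed level was 9.93 to 10.53 in the S-set wild type and 9.97 to 10.05 in S/S. In the L set it was 9.92 to 10.06 in wild type and 10.03 to 10.12 in L/L. The mean level of the epithelial markers was 6.82 in S-set wild-type array 1, the array that stood apart. It was 6.33 and 6.27 in arrays 2 and 3 of that group, and 6.28, 6.29 and 6.36 in S/S. The negative S/S differences of this list therefore lean on that 1 array. The defining epithelial markers Epcam and Cdh1 were not above 6.26 in any group. The 11 fibroblast markers had a median of 0.05 in S/S and -0.13 in L/L, with log2 summed levels of 15.78 to 15.96 and 15.86 to 15.93 in the S-set wild type and S/S and of 15.93 to 15.98 and 15.81 to 15.84 in the L-set wild type and L/L. None of these markers passed in either mutant (limma), and their part in the differences of the members was not tested.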

How the data were processed

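The table deposited by the authors holds log2 RMA values of 35556 probe sets on 12 arrays, made with Partek according to the series' design text. Their range gave the log2 scale, and no genome build is stated in the sources read. The platform annotation gave a single symbol for 21789 probe sets, which left 19938 genes. A linear model of 4 group means over 12 arrays was fitted with limma 3.58.1 (R 4.3.3), with two-sided p-values adjusted by the Benjamini-Hochberg method over all 19938 genes. Passing means an adjusted p below 0.05. The code was tested on simulated data. Precision is limited by the number of arrays. The spread was estimated jointly over all groups, so a gene that varied widely in the L set also had a wide SE in S/S.

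The members and the lists were chosen with earlier results of these data known. Named genes were the members, the passing genes and the 2 of smallest p of each pathway list in each mutant, the genes most correlated with each member above the olfactory level (5 for Ereg, 2 for others), and marker lists by counts, with up to 3 first-listed markers. Outside this rule, Ereg's neighbours, Adam8, Mrc1, Esam, Emcn, Flt1, Xist and the genes passing under alternatives were named. Protein sequences were not used here. Alternatives were another normalization, prior, array weighting, filter, probe set choice, replicate block and left-out arrays.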

Additional observations from a re-analysis of the deposited data

Results flagged for a closer look

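For 6 pathway genes every S/S array lay on one side of its wild-type mean and every L/L array on the other side. The share of all genes that meet this rule was not counted, so the number of such genes is no result. The S/S effect minus the L/L effect was -0.34 for Erbb3, -0.22 for Erbb4, 0.57 for Sos1, 0.42 for Lrig2, 0.43 for Spry4 and 0.25 for Creb1. Tested as a difference between the effects, none of the 6 passed (limma), with adjusted p-values from 0.6 for Sos1 to 0.807 for Erbb4. The groups of Erbb3 did not overlap in either set, those of Sos1 did not overlap in L/L and those of Spry4 did not in S/S, while Erbb4, Lrig2 and Creb1 overlapped in both. Groups of 3 arrays are too small for a check of single arrays.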

How the results depend on the processing

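Where an alternative could change it, the S/S difference of Ereg, on which the genes were chosen, was between 0.54 without both number-1 arrays of the S set and 0.82 after quantile normalization. No member passed in L/L under any of the 21 alternatives, the smallest adjusted p being 0.491 (limma). With single arrays left out, the L/L difference ran from -0.11 to 0.0006 for Btc, from -0.0234 to 0.096 for Egfr and from -0.0106 to 0.227 for Hbegf, so these signs changed. It ran from 0.0033 to 0.23 for Ereg. In S/S the difference ran from -0.21 to -0.0028 for Egfr and from -0.23 to -0.0158 for Tgfa, and the S/S difference of Hbegf ran from -0.18 to 0.24 and was -0.0023 after quantile normalization and -0.06 with array weights. The genes passing in S/S and L/L were 24 and 8. They were 44 and 5 with each set fitted alone, 415 and 336 with array weights, 37 and 5 with the replicate block, 3 and 42 without both number-1 arrays of the S set, and 37 and 2 without both of the L set. The S/S count ran from 2 without S/S array 2 to 38 without L-set wild-type array 1, and the L/L count from 2 to 26, the latter without S-set wild-type array 1. The cause was not tested. The passing pathway genes, an alternative set chosen after seeing the data, were 4 in S/S and 1 in L/L with array weights and 0 to 1 in S/S with single arrays left out. Correlations of the deviations of same-numbered arrays were 0.388, 0.475 and -0.122 in the S set and 0.601, 0.058 and 0.359 in the L set. Between arrays of different number they ran from -0.599 to 0.587 in the S set and from -0.517 to 0.214 in the L set. These values do not settle whether the numbers pair samples. The main model did not pair them, and the replicate block did.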

Other observations

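Members shared deviations from their group means within groups. Hbegf and Egfr deviated together (Pearson 0.84 over 12 arrays, 0.69 over 11 without S-set wild-type array 1), and Hbegf and Btc deviated in opposite directions (-0.89 and -0.78). For Ereg the closest member was Egfr (0.76, and 0.53 without that array), while Ereg with Nrg1 went from 0.21 to 0.78 when that array was left out. These values describe arrays that share normalization and hybridisation.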
